A study of Mus musculus with 4 samples.

Results

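Collagen genes were described across 4 microarrays of reprogramming mouse fibroblasts. Members were all probes, other than controls, whose gene name on the array had the form of a collagen chain name such as Col1a1. This rule used no measured value. It found 67 probes for 43 genes, out of 55681 probes for 34816 genes or transcripts. The genes were grouped as fibrillar (types I, II, III, V and XI, 9 genes), basement membrane (type IV, 6 genes) and other collagens (28 genes), among them Col22a1. The last group also holds Col24a1 and Col27a1, which encode fibril-forming chains but lie outside the types named as fibrillar. The gene that RefSeq calls Col26a1 bears the older name Emid2 on the array, with 2 probes, and was not a member.

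The study is on the kinase AKT, and on what its activation does to fibroblasts being reprogrammed into induced pluripotent stem cells. All cells were mouse embryonic fibroblasts from the Oct4-EGFP transgenic mouse, which carries EGFP under the Oct4 promoter and enhancer (OE-MEFs), taken from male embryos at midgestation and mixed from several embryos. All groups received Oct4, Sox2 and Klf4 by retrovirus (OSK), and 2 of the 4 groups also received AKT-MER (OSKA), which is myristoylated AKT joined to a modified estrogen receptor. AKT-MER becomes active when 4-hydroxytamoxifen (4OHT) binds. Either 4OHT or the vehicle was given from 3 days postinfection (dpi), and RNA was taken at 8 dpi from the whole culture. Values below keep the order OSK with vehicle, OSK with 4OHT, OSKA with vehicle (named AKT-nonactivated cells) and OSKA with 4OHT (named AKT-activated cells). There was 1 array per group, so no difference has a replicate check and no test was run. The description of the last sample is worded as if AKT-MER were not active, against its title, and the title was followed.

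Collagens are the main structural proteins of the extracellular matrix. Their chains repeat the unit glycine-X-Y, and groups of such chains wind into a triple helix. Proline and lysine residues are hydroxylated in the endoplasmic reticulum, the propeptides of fibrillar collagens are cut off outside the cell, and lysyl oxidases cross-link the fibrils. Fibroblasts are a chief source of fibrillar collagen, and loss of fibroblast character is a feature of reprogramming.

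Each level is a log2 intensity from which the array's 75th percentile, 377 to 462 on the linear scale, was taken. Between 52.4% and 55.4% of spots were well above background. The transgene was visible in the receptor gene Esr1, whose probe was well above background on both OSKA arrays only, by at least 219-fold in the absence and at least 233-fold in the presence of 4OHT. A level describes 1 probe and can be set against the same probe on another array, but not against another probe. The scanner software gave an error of 0.20 for the difference of a bright collagen probe and up to 0.42 for a dim one, and this error leaves out variation between cultures. Scaling to the spike-in probes in place of the 75th percentile moved the median of all genes by −0.31 with 4OHT in OSK cells, 0.00 with 4OHT in OSKA cells, −0.44 with AKT-MER in the absence of 4OHT and −0.13 with AKT-MER in its presence. All 4 arrays lay on 1 slide at different positions, and position and group cannot be told apart. The 4OHT difference in OSKA cells also holds any effect of 4OHT itself, for which OSK cells are the control. In RNA from whole cultures, fewer cells of a type and less RNA per cell cannot be told apart either.

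Of the 43 collagen genes, 35 were well above background on all 4 arrays. These were 9 of 9 fibrillar, 5 of 6 basement membrane and 21 of 28 other collagen genes. Col6a5, Col9a1 and Col9a3 were so on 1 or 2 arrays, and Col4a3, Col6a4, Col13a1, Col17a1 and Col19a1 on none. Each gene is given by its brightest probe, and 26 genes had only 1 probe.

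**Figure D1:**
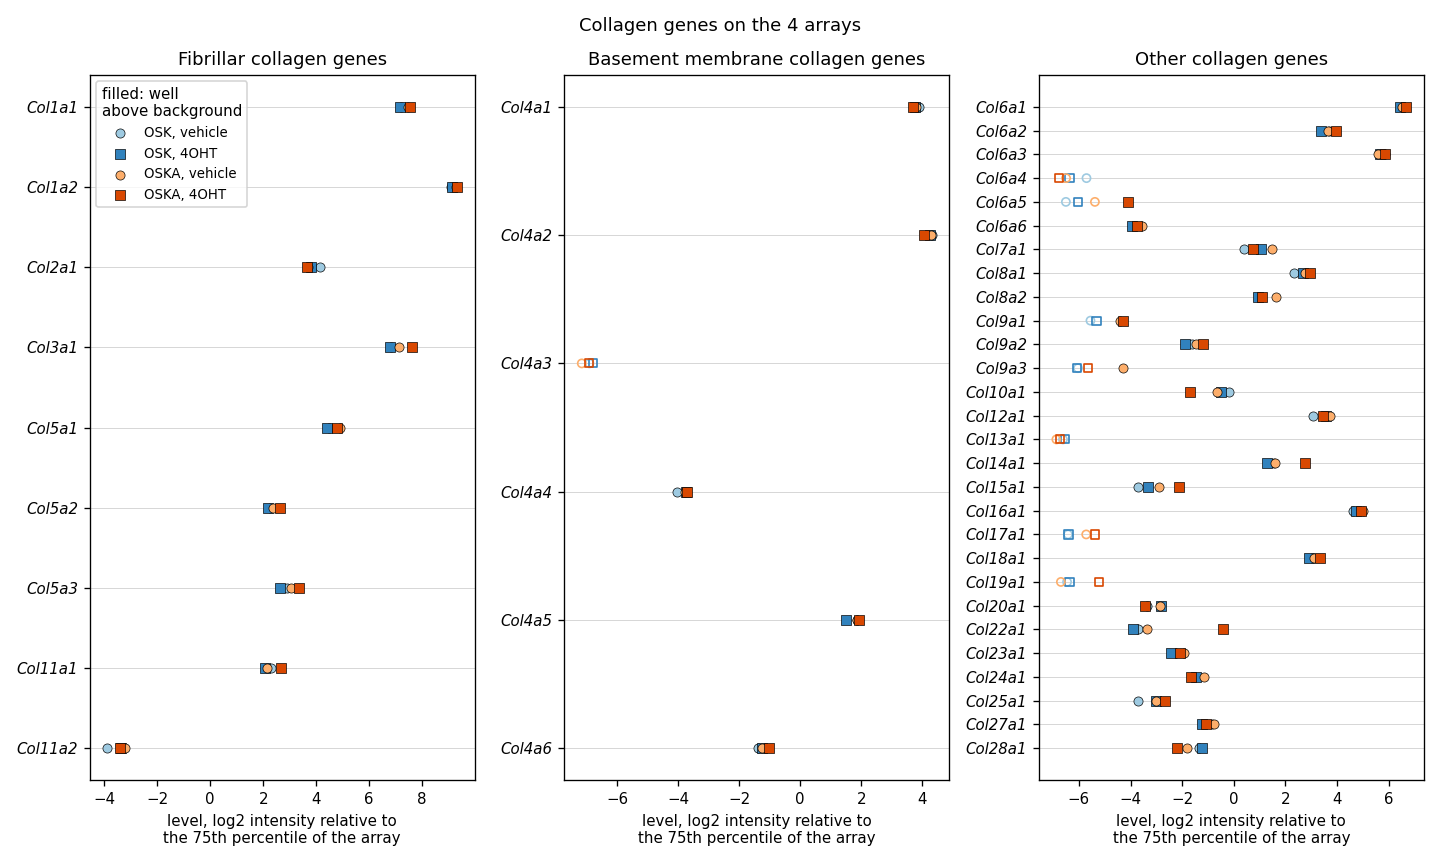
Level of each of the 43 collagen genes on the 4 arrays, as log2 intensity over the array's 75th percentile (x axis), by group (panels). Filled symbols mark probes well above background and open symbols those that were not. The 4 arrays lie close together for most genes, and the AKT-activated array (dark orange square) lies apart for Col22a1 at −0.43, against −3.92 to −3.35 on the others.

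Type I collagen is the main fibril protein of skin, tendon and bone. Col1a1, which encodes its α1 chain, lay at 7.22, 7.16, 7.47 and 7.56 on the 4 arrays. Col1a2, the gene of the α2 chain, lay at 9.09, 9.14, 9.27 and 9.32. For each gene both OSKA arrays lay above both OSK arrays, by small amounts. With 4OHT, Col1a1 differed by −0.06 in OSK and 0.10 in OSKA cells and Col1a2 by 0.05 and 0.06, all within the software's error of 0.20 (in OSK cells −0.37 for Col1a1 and −0.26 for Col1a2 under spike-in scaling). Between OSKA and OSK cells, Col1a1 differed by 0.25 without and 0.40 with 4OHT and Col1a2 by 0.18 and 0.18, but without 4OHT spike-in scaling turned these to −0.19 and −0.26.

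Col3a1, the gene of type III collagen, which forms fibrils together with type I in soft tissue, lay at 6.84, 6.79, 7.12 and 7.61. Its AKT-activated array was the highest and both OSK arrays were the lowest. The 4OHT difference was −0.05 in OSK and 0.49 in OSKA cells, or 1.41-fold. AKT-MER with 4OHT gave 0.82, or 1.76-fold, which was 0.69 under spike-in scaling, 1.02 under quantile normalization and 1.0 with normexp background correction before it. AKT-MER without 4OHT gave 0.28, and −0.16 under spike-in scaling.

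Promoter windows of Col1a2 and Col3a1 are shown because their genes form a common fibril and yet differed in size in the AKT-activated cells. Both are the 250 bases before the gene start on the plus strand of GRCm38.p6, as RefSeq gives it, at chr6:4505368-4505617 for Col1a2 and chr1:45311288-45311537 for Col3a1. Capitals mark the letters CCAAT, the sequence known to bind the factor NF-Y, and CAGAC, the core of SMAD-binding elements, with their reverse complements ATTGG and GTCTG.
Col1a2: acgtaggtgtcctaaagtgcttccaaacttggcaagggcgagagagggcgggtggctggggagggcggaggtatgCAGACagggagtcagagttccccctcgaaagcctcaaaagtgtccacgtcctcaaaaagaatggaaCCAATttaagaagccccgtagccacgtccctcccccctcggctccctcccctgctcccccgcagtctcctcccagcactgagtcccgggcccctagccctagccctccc
Col3a1: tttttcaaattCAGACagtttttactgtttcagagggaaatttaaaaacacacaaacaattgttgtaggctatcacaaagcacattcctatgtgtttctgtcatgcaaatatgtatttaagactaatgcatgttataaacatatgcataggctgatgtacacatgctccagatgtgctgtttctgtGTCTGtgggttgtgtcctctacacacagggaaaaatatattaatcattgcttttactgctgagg
The Col1a2 window holds 1 CCAAT and 1 CAGAC, starting 109 and 175 bases before the gene start. The Col3a1 window holds no CCAAT and 2 copies of CAGAC, 1 of them on the other strand. On either strand, CCAAT occurred in 33.8% and CAGAC in 42.2% of 32851 such windows of all genes. Among the 6 fibrillar genes with a window, 3 held CCAAT and 4 held CAGAC. The motifs do not overlap each other, and a match describes the letters alone.

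Types V and XI regulate the nucleation and width of fibrils. Col5a1 lay at 4.47, 4.41, 4.89 and 4.81, Col5a2 at 2.28, 2.17, 2.36 and 2.65, and Col5a3 at 2.92, 2.62, 3.06 and 3.35. Each was higher on both OSKA arrays than on both OSK arrays. AKT-MER with 4OHT gave 0.39, 0.48 and 0.72 for these genes, and 0.27, 0.35 and 0.60 under spike-in scaling. Without 4OHT it gave 0.42, 0.08 and 0.14, which spike-in scaling turned to −0.02, −0.36 and −0.30. With 4OHT in OSKA cells Col5a1 differed by −0.09, whereas Col5a2 and Col5a3 both differed by 0.29. Col11a1 lay at 2.28, 2.06, 2.14 and 2.67, and its AKT-activated array stood 0.53 above AKT-nonactivated cells. Col11a2 was dim, at −3.89, −3.38, −3.22 and −3.42, with OSK cells without 4OHT lowest. Its difference of 0.51 with 4OHT in OSK cells had a software error of 0.35.

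Col2a1, the gene of the main cartilage fibril, ran the other way. It lay at 4.14, 3.79, 3.68 and 3.67, highest in OSK cells without 4OHT and alike on both OSKA arrays. Its differences were −0.34 with 4OHT in OSK cells, −0.01 with 4OHT in OSKA cells, −0.46 with AKT-MER in the absence of 4OHT and −0.13 in its presence. Of 9 chondrocyte markers, 6 were well above background on all 4 arrays. Matn1 and Matn3 were on none, and the summed level of the list, which weighs bright probes most, lay between 5.33 and 5.51 (log2). Sox9, the main transcription factor of cartilage, lay at −1.48, −1.8, −1.15 and −0.08, highest in AKT-activated cells, where Col2a1 lay at 3.67. The 7 markers measured with 4OHT in OSKA cells did not share a direction: 4 lay above 0, among them Sox9 at 1.06 and Hapln1 at 0.84, and 3 below, namely Sox5, Sox6 and Comp at −0.21, −0.38 and −0.16. With AKT-MER in the absence of 4OHT the 7 were again 4 above 0, from 0.02 for Acan to 0.33 for Sox9, and 3 below, from −0.17 for Comp to −1.10 for Cnmd, before the spike-in shift of −0.44, which is larger than each value above 0. The part of cartilage-like cells in these values was not tested.

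Type IV collagen forms the network of basement membranes. Col4a1, whose probe was spotted 10 times, lay at 3.88, 3.76, 3.79 and 3.70, with an SD among its spots of 0.047 to 0.054. Col4a2 lay at 4.31, 4.26, 4.29 and 4.06. These arrays hardly differ: the 4 differences lay between −0.13 and −0.05 for Col4a1 and between −0.23 and −0.01 for Col4a2, before spike-in scaling, which moved them to between −0.53 and −0.09 and between −0.45 and −0.23. The pair is known to share a promoter. The RefSeq windows around their starts, from 250 bases before to 50 after, lie head to head at chr8:11312777-11313076 on the minus strand for Col4a1 and chr8:11312555-11312854 on the plus strand for Col4a2 (GRCm38.p6), and overlap by 78 bases.

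Col4a5 and Col4a6 also lie head to head, on chromosome X, with starts 1343 bases apart. Col4a5 lay at 1.85, 1.5, 1.85 and 1.92, lowest in OSK cells with 4OHT. Col4a6 lay at −1.39, −1.25, −1.24 and −1.01, with small steps between arrays. With 4OHT in OSKA cells they differed by 0.07 and 0.24, but the second probe of Col4a6 gave −0.83, and the mean of its probes −0.30. Col4a4 lay at −4.04, −3.74, −3.78 and −3.71, close to the lowest level at which probes were well above background, −4.90 to −4.54. Its partner chain Col4a3 stayed at background throughout.

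Type XXII collagen associates with fibrils at tissue junctions such as that of muscle and tendon. Its gene, Col22a1, showed the widest spread over the arrays among the 35 genes. Its only probe lies at chromosome 15, 71628906 to 71628965 on the minus strand of NCBI37 (mm9). The last 30 bases of the probe, chr15:71628906-71628935, are shown because all values of the gene rest on this probe, and capitals mark AATAAA, the usual polyadenylation signal, which 10.1% of all probes hold as read.
Col22a1: gagttgcaaAATAAAagttttcaatggtca
Col22a1 lay at −3.71, −3.92, −3.35 and −0.43, or linear intensities of 35.4, 25, 39.6 and 284, against negative controls with medians of 3.28 to 4.51. The first 3 arrays lay close together and the AKT-activated array stood far above them. With 4OHT it was 7.54-fold higher in OSKA cells (2.91, software error 0.23) and differed by −0.21 in OSK cells (software error 0.34). AKT-MER with 4OHT gave 11.2-fold (3.48), and without 4OHT 0.36, which was −0.08 under spike-in scaling. With normexp background correction and quantile normalization, which shrinks differences of dim probes, the differences in OSKA cells and with AKT-MER in the presence of 4OHT were 1.83 and 2.02.

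Other fibril-associated collagens with interrupted triple helices did not share this size of difference. Col14a1, found along the fibrils of tendon and skin, lay at 1.54, 1.29, 1.61 and 2.77, highest in AKT-activated cells. The probe lies at chromosome 15, 55352264 to 55352323 on the plus strand (mm9). Its level was 2.24-fold higher with 4OHT in OSKA cells (1.16) and differed by −0.25 in OSK cells, and AKT-MER with 4OHT gave 2.79-fold (1.48). The other probe, in an earlier stretch of the transcript, gave 0.70, −0.22 and 0.96 for these differences, so that the mean of the probes, 0.93, lay under 2-fold in OSKA cells. Col12a1, a relative of Col14a1, lay at 3.06, 3.57, 3.71 and 3.44, a range of under 2-fold. Its differences were 0.51 with 4OHT in OSK cells, −0.28 with 4OHT in OSKA cells, 0.65 with AKT-MER in the absence of 4OHT (0.21 under spike-in scaling) and −0.13 in its presence.

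Col20a1 had opposite 4OHT differences, 0.51 in OSK and −0.59 in OSKA cells, at levels of −3.35, −2.83, −2.86 and −3.45, while its second probe gave 0.18 and −0.11. Col16a1 lay between 4.60 and 5.0, and Col9a2 between −1.89 and −1.18, each within 2-fold over the arrays. Col9a1 was well above background on both OSKA arrays only, by at least 1.21-fold in the absence and at least 1.19-fold in the presence of 4OHT. Col9a3 was measured in AKT-nonactivated cells alone, by at least 1.38-fold over AKT-activated cells and at least 1.29-fold over OSK cells with vehicle. The bounds in the absence of 4OHT, 0.28 and 0.37 on the log2 scale, are smaller than the shift of −0.44 that spike-in scaling makes in that comparison.

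Types XV and XVIII are basement membrane proteoglycans, and a fragment of type XVIII is endostatin. Col15a1 lay at −3.70, −3.33, −2.88 and −2.11. Both OSKA arrays lay above both OSK arrays, and the AKT-activated array was the highest. The differences were 0.37 with 4OHT in OSK cells, 0.77 with 4OHT in OSKA cells, 0.82 with AKT-MER in the absence of 4OHT and 1.22, or 2.33-fold, in its presence, with software errors of 0.23 to 0.31. The normexp correction gave 0.58 for the last, 0.32 for AKT-MER in the absence of 4OHT (0.38 under spike-in scaling) and 0.41 for 4OHT in OSKA cells. A second probe differed by 0.95 with 4OHT in OSKA cells and 0.24 with AKT-MER in the absence of 4OHT, but was lower by at least 0.25 with 4OHT in OSK cells, against 0.37 for the first probe. Col18a1 lay between 2.91 and 3.32.

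Probes of Col15a1 and Col14a1 are shown to make the collagen repeat visible. That of Col15a1 lies at chr4:47283786-47283845 and the second one of Col14a1 at chr15:55347733-55347792, both on the plus strand of mm9. Capitals mark the triplets GGN, which code for glycine, in the frame that holds most of them.
Col15a1: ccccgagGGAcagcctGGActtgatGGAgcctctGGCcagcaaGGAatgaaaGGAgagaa
Col14a1: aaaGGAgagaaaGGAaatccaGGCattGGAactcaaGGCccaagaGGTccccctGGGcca
In the Col15a1 probe all 6 triplets stand 9 bases apart, the length of 1 glycine-X-Y unit. The Col14a1 probe holds 7, at steps of 9 bases with 1 step of 6. A GGN triplet at every step of 9 bases was found in 2 of 67 collagen probes (2.99%), those of Col15a1 and Col25a1, and in 7 of 55681 probes of the array (0.0126%). Whether a probe matches more than 1 collagen gene was not analysed here.

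Type X collagen marks hypertrophic cartilage. Col10a1 lay at −0.20, −0.51, −0.66 and −1.70, lowest in AKT-activated cells. With 4OHT it was 2.06-fold lower in OSKA cells (−1.04) and differed by −0.30 in OSK cells. AKT-MER gave −0.45 without and −1.19 with 4OHT, and the normexp correction reduced the difference in OSKA cells to −0.70 and the last to −0.84. Col28a1, which encodes a chain with von Willebrand factor A domains, lay at −1.36, −1.25, −1.8 and −2.20, also lowest in AKT-activated cells but with a 4OHT difference of 0.12 in OSK cells, which spike-in scaling makes negative (shift −0.31).

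Type VII collagen forms the anchoring fibrils beneath the epidermis. Col7a1 lay at 0.41, 1.05, 1.46 and 0.74, highest in AKT-nonactivated cells. The 4OHT difference was 0.64 in OSK and −0.72 in OSKA cells. AKT-MER without 4OHT gave 2.08-fold (1.05), which was 0.61 (log2) under spike-in scaling, and with 4OHT −0.30. Of 9 epithelial markers 7 were on all arrays, with a summed level of 2.28, 1.95, 1.5 and 2.25 (log2), and its bearing on Col7a1 was not tested. The sum weighs bright probes most. Krt8 was lowest in AKT-nonactivated cells, and Esrp1 was highest there, as Col7a1 was. With AKT-MER in the absence of 4OHT, 5 of the 7 epithelial markers measured lay below 0 and 2 above, with a median of −0.71. Of the 7, 3 were at least 2-fold lower, where 0.931% of all genes were. Col8a2, of the short-chain collagens, was also highest in AKT-nonactivated cells, at 1.62 against 0.94 to 1.08 elsewhere, while Col8a1 lay between 2.33 and 2.94.

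**Figure D2:**
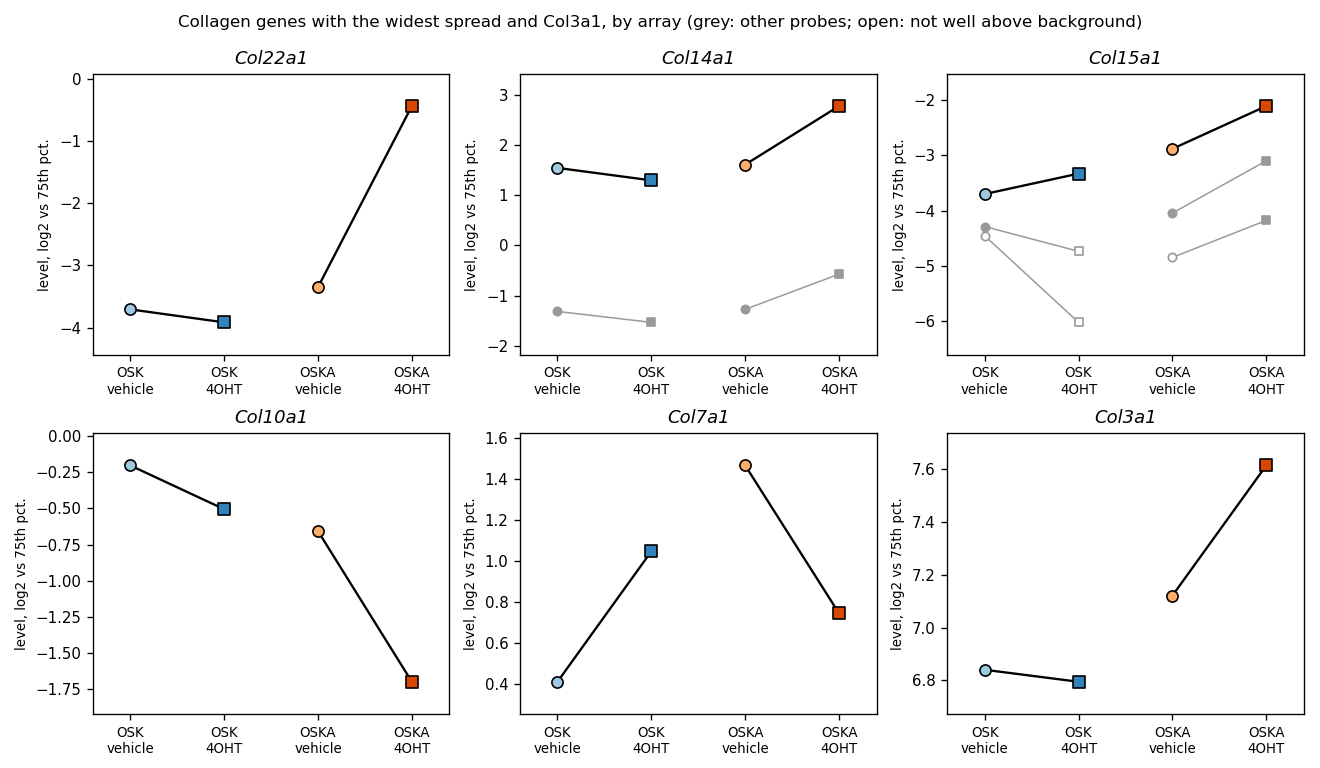
Level by array (log2 intensity over the array's 75th percentile, y axes differ) of 5 collagen genes that differed at least 2-fold in 1 or more comparisons, and of Col3a1. Lines join the vehicle (circle) and 4OHT (square) arrays of OSK and of OSKA cells, grey points are other probes of the gene and open points were not well above background. Col22a1, Col14a1 and Col15a1 are highest and Col10a1 is lowest on the AKT-activated array, and Col7a1 has 4OHT differences of opposite sign in OSK and OSKA cells.

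Type VI collagen forms beaded microfilaments around cells. The levels of its main chains had narrow ranges: Col6a1 lay between 6.42 and 6.68, Col6a2 between 3.36 and 3.96 and Col6a3 between 5.57 and 5.84. AKT-MER with 4OHT gave 0.26, 0.60 and 0.19 for these genes, and 0.30 by the other probe of Col6a2. Col6a6 lay between −3.96 and −3.55. Col6a5 was well above background in AKT-activated cells alone, where it was at least 1.74-fold above AKT-nonactivated cells and at least 1.36-fold above OSK cells with 4OHT.

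Of the transmembrane collagens, Col13a1 and Col17a1 were not well above background on any array. Col23a1 lay between −2.45 and −1.92, and Col25a1, found in amyloid plaques and needed for motor innervation, lay at −3.70, −3.02, −3.00 and −2.68. OSK cells without 4OHT were the lowest for Col25a1, by 0.68 to 1.03. The fibril-forming chains outside the named types, Col24a1 and Col27a1, lay between −1.64 and −1.16 and between −1.24 and −0.76.

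Members past a 2-fold threshold were set beside all genes measured in the same comparison. With 4OHT in OSK cells, which lack AKT-MER, 0 of 35 collagen genes were 2-fold higher or lower, where 0.609% of all genes were higher and 0.277% lower. With 4OHT in OSKA cells 2 of 36 were higher, Col22a1 and Col14a1, where 2.01% of all genes were, and 1 was lower, Col10a1, where 0.901% were. AKT-MER without 4OHT had 1 of 35 higher, Col7a1 (1.09% of all genes), and 0 lower (0.931%). AKT-MER with 4OHT had 3 higher, Col22a1, Col14a1 and Col15a1 (1.92%), and 1 lower, Col10a1 (1.12%). These are single genes in each comparison, and both comparisons that hold Col22a1 share the AKT-activated array. At 1.5-fold, 4OHT in OSK cells had 2 collagen genes higher, Col7a1 and Col25a1 (4.33% of all genes), and 0 lower (1.63%), and 4OHT in OSKA cells had 3 higher (5.06%) and 3 lower (4.63%). AKT-MER had 6 higher (5.66%) and 0 lower (3.99%) in the absence of 4OHT, and 8 higher (5.46%) and 3 lower (5.1%) in its presence. The split at 1.5-fold rests on the scaling where the median of all genes shifts. Under spike-in scaling 4OHT in OSK cells had 0 higher (0.926% of all genes) and 6 lower (11.3%), and AKT-MER had 1 higher, Col7a1 (0.996%), and 4 lower (28.3%) in the absence of 4OHT, and 5 higher (3.82%) and 3 lower (8.94%) in its presence. With normexp and quantile normalization 4OHT in OSK cells had 0 higher (1.54% of all genes) and 0 lower (0.262%). AKT-MER then had 3 higher (2.2%) and 0 lower (1.58%) in the absence of 4OHT, and 5 higher (3.05%) and 1 lower (1.85%) in its presence.

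Smaller differences were read against the software's error. With 4OHT in OSKA cells 22 of 36 collagen genes differed by more than their own error, where 42.5% of all genes did. They were 13 upward (18.4% of all genes) and 9 downward (24.2%). Among the fibrillar genes 4 of 9 did, namely Col3a1, Col5a2, Col5a3 and Col11a1, all upward. AKT-MER with 4OHT had 23 of 35 (45.7% of all genes), 19 upward (18.5%) and 4 downward (27.2%). Of the fibrillar genes 6 were higher beyond their error and none lower, and under spike-in scaling these 6 stayed between 0.27 and 0.69. With 4OHT in OSK cells 16 of 35 exceeded the error (34% of all genes) and with AKT-MER in the absence of 4OHT 19 of 35 (39.8%).

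**Figure D3:**
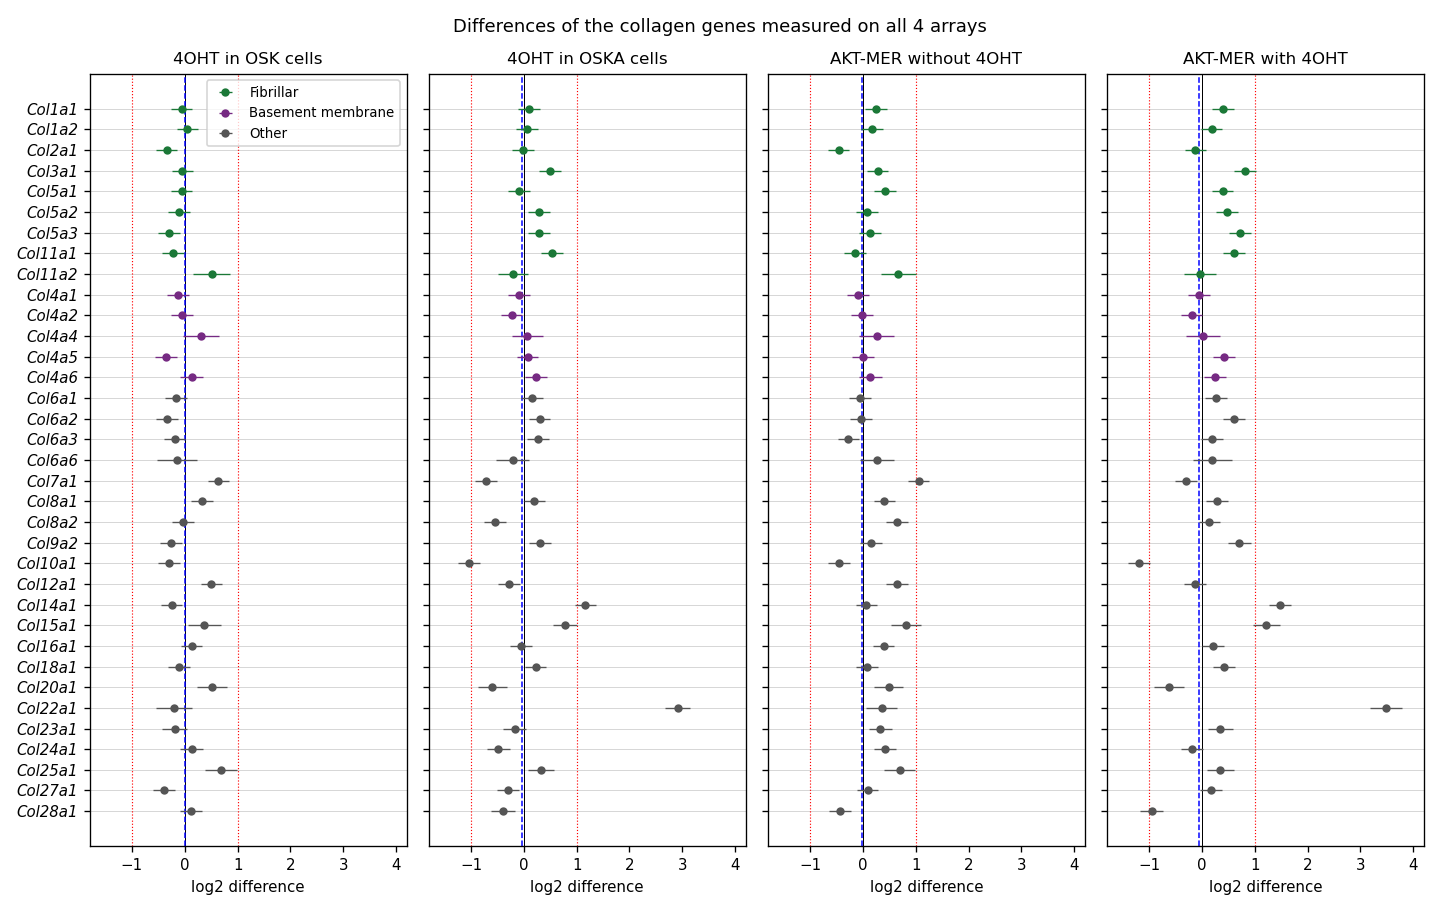
Log2 difference of the 35 collagen genes measured on all 4 arrays in each comparison (panels), with bars for the error given by the scanner software. Red dotted lines mark 2-fold and the blue dashed line the median of all genes. Most genes lie within 2-fold in every panel, and Col22a1 stands at 2.91 and 3.48 in the panels that hold the AKT-activated array.

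The median of the collagen genes was −0.06 with 4OHT in OSK cells and 0.07 with 4OHT in OSKA cells, beside medians of all genes of 0.00 and −0.03. Under spike-in scaling the first was −0.37, and those of the fibrillar, basement membrane and other collagens were −0.37, −0.36 and −0.42. With AKT-MER it was 0.18 in the absence and 0.25 in the presence of 4OHT, beside −0.02 and −0.05. Under spike-in scaling these values were −0.26 in the absence and 0.12 in the presence of 4OHT. Relative to the median of all genes, the collagen median in the absence of 4OHT was higher by 0.12 to 0.27 in all settings tried. The fibrillar genes had medians of −0.06, 0.10, 0.18 and 0.40 in these comparisons, and the basement membrane genes −0.05, 0.07, 0.00 and 0.02. Other collagens had −0.11, 0.02, 0.33 and 0.21. Spike-in scaling turned the values with AKT-MER in the absence of 4OHT to −0.26 for the fibrillar, −0.44 for the basement membrane and −0.11 for the other collagens. In the presence of 4OHT it turned them to 0.27, −0.11 and 0.08. The basement membrane medians near 0 and that of the other collagens with 4OHT in OSKA cells also changed sign under other settings, such as −0.09 for the former in OSKA cells with the mean of all probes and −0.06 for the latter with the filter on all 4 arrays.

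On both OSKA arrays 18 of the 35 genes lay above both OSK arrays, where 16.2% of all genes did, and 3 lay below, Col2a1, Col10a1 and Col28a1, where 24.7% did. Among the 18 were Col1a1, Col1a2, Col3a1 and all 3 type V genes. This order rests on the scaling of the arrays. Under spike-in scaling 1 collagen gene lay above (2.45% of all genes) and 6 below (58.8%). Under the other 4 scalings 17 to 19 lay above (16.3% to 18.2% of all genes) and 3 below (21.9% to 24.4%).

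**Figure D4:**
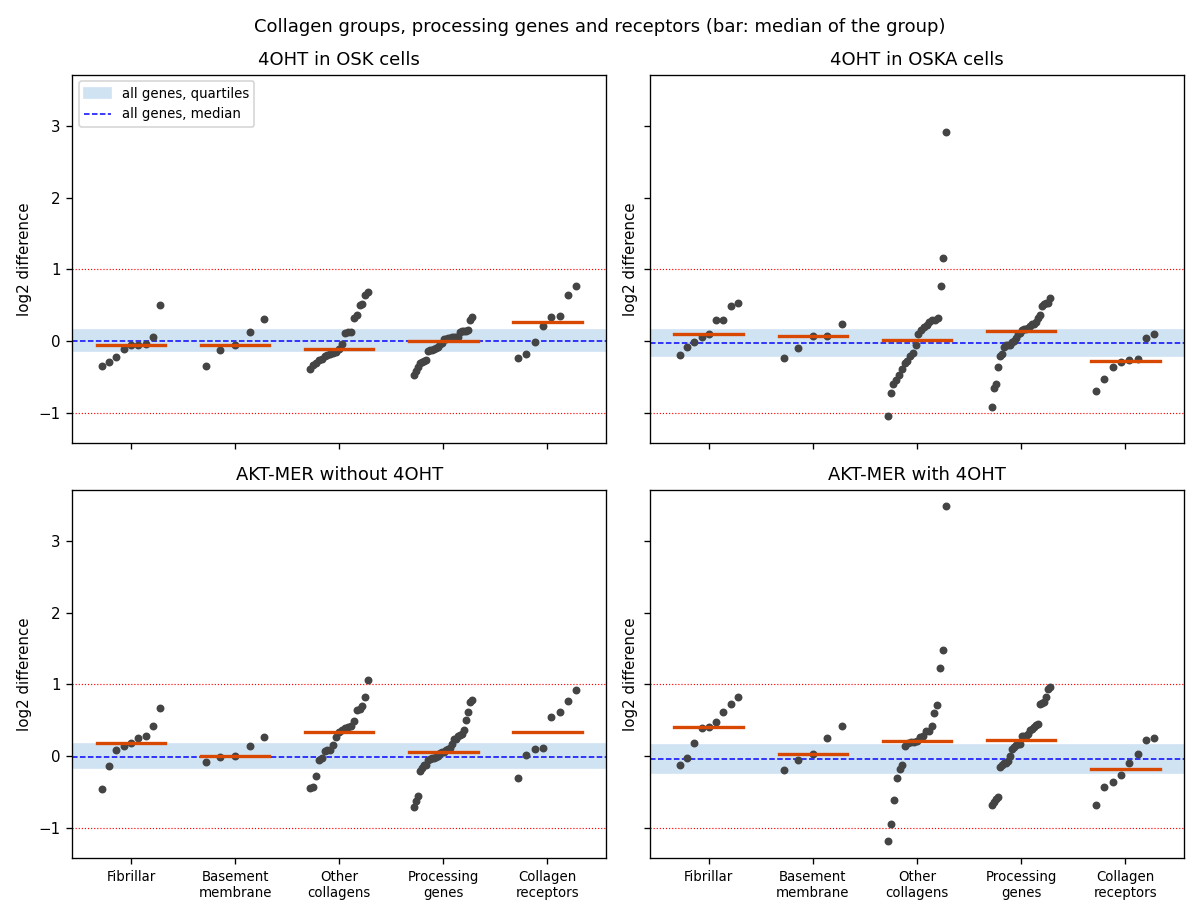
Log2 differences (y axis) of collagen groups, collagen processing genes and collagen receptors in each comparison (panels). Each point is a gene, the orange bar is the median of its group, and the blue band and dashed line give the quartiles and the median of all genes. The fibrillar median lies highest for AKT-MER with 4OHT, at 0.40, and the receptor median is 0.27 with 4OHT in OSK cells (−0.04 under spike-in scaling) and −0.28 in OSKA cells.

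Genes that process collagen were taken from a list of 32 genes, of which 30 were measured in each comparison. None of these 30 differed 2-fold by its brightest probe, where 0.886% to 3.04% of all genes did in either direction. The other probe of Lox gave 1.28 with AKT-MER in the absence of 4OHT. With 4OHT in OSKA cells 1 was at least 1.5-fold higher (5.06% of all genes) and 3 were lower (4.63%). Adamts3, which removes the amino-terminal propeptide, was higher by 0.61 (0.32 by its other probe). P4ha3, a prolyl hydroxylase subunit, differed by −0.91, and the cross-linking oxidases Loxl3 and Lox by −0.66 and −0.60. Colgalt2, which adds galactose to hydroxylysine, was well above background on 2 arrays only. It was higher by at least 1.5 with 4OHT in OSKA cells and at least 1.14 with AKT-MER in the presence of 4OHT, and lower by at least 0.65 with AKT-MER in its absence and at least 0.29 with 4OHT in OSK cells (log2).

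With AKT-MER in the presence of 4OHT, 6 of 30 processing genes passed 1.5-fold on the higher side (5.46% of all genes) and 3 on the lower (5.1%). Serpinh1, the collagen chaperone of the endoplasmic reticulum, lay at 5.25, 5.31, 5.56 and 6.05. P4ha2, a further prolyl hydroxylase subunit, lay at 3.14, 3.29, 3.51 and 4.04. Creb3l1, a transcription factor of type I collagen in bone, lay at 1.30, 1.35, 1.81 and 2.32. Each of these was highest in AKT-activated cells. The others were Adamts3 (0.93), Loxl2 (0.82) and Tll1 (0.72, but 0.06 by its other probe) on the higher side and the dim P3h2 (−0.68, software error 0.40), Loxl4 (−0.65) and P4ha3 (−0.60, but −0.43 by its other probe) on the lower. The medians of the list were 0.00 and 0.13 with 4OHT in OSK and OSKA cells, and 0.06 and 0.22 with AKT-MER, of which the value without 4OHT was −0.38 under spike-in scaling.

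Of 10 collagen receptor genes 8 were measured, and none differed 2-fold by its brightest probe, while the other probe of Itga1 gave 1.12 with 4OHT in OSK cells. Of all genes only 0.886% to 3.04% passed 2-fold in either direction, depending on the comparison. Their medians were 0.27 with 4OHT in OSK cells, −0.28 with 4OHT in OSKA cells, and 0.33 and −0.18 with AKT-MER without and with 4OHT. The integrin chain Itga11, which binds fibrillar collagen on fibroblasts, lay at 4.25, 4.57, 5.02 and 4.32, highest in AKT-nonactivated cells. Itga1, which binds type IV collagen, lay at −1.49, −0.73, −0.88 and −1.41, highest in OSK cells with 4OHT. The leukocyte receptor Lair1 lay at 0.27, 0.91, 1.19 and 0.94, lowest in OSK cells without 4OHT. Spike-in scaling turned the medians with 4OHT in OSK cells and with AKT-MER in the absence of 4OHT to −0.04 and −0.11.

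Markers of cell types were set beside these values. All 10 fibroblast markers were well above background on all 4 arrays, with a summed level of 9.86, 9.96, 9.89 and 9.70 (log2), a sum carried by its brightest probes. With AKT-MER in the presence of 4OHT 4 of them lay above 0, from 0.37 for Pdgfra to 0.86 for Fap, and 6 below, from −0.02 for Prrx1 to −0.76 for S100a4, and the median of the list equalled that of all genes at −0.05. All 7 macrophage markers were so as well, at 7.43, 7.95, 7.90 and 7.71, lowest in OSK cells without 4OHT before spike-in scaling, as Lair1 was. Their part in the collagen levels was not tested. Of 9 osteoblast markers 5 were measured on all arrays, with a summed level of 4.77, 5.16, 4.95 and 4.77 (log2), which weighs bright probes most. With 4OHT in OSKA cells Bglap2 was higher by 3.83, Bglap by at least 2.51, Phex by 1.74 and Alpl by 1.5, whereas Runx2 and Spp1 differed by −0.44 and −0.35 and Sp7, Ibsp and Dmp1 were not well above background. These higher values stood on the array that was also highest for Col22a1, and the part of such cells in the Col22a1 level was not tested. Of 7 skeletal muscle markers 5 were on no array, and of 8 endothelial markers 4 were on all. The 1 muscle marker measured differed by 0.17 and −1.17 with 4OHT in OSK and OSKA cells, and by 0.54 and −0.79 with AKT-MER without and with 4OHT. Endothelial medians in these comparisons were 0.35, −0.22, −0.03 and −0.50, all before spike-in scaling.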

How the data were processed

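RNA from 4 cultures, 1 per group, was labelled from 100 ng of total RNA and hybridized to single-colour Agilent mouse arrays on 1 slide. The deposited files hold scanner output: per spot, the processed intensity that the authors obtained with Agilent Feature Extraction 10.7.3.1 (submitters' processing notes), already background-subtracted. A deposited value table of the series held the same intensity, at 0.995 to 1.005 times the scanner value.

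Control spots and spots marked as outliers were left out, spots of a probe were averaged, and log2 intensity was expressed relative to the 75th percentile of each array. No spot was saturated. The brightest probe represented a gene. A difference needed both arrays well above background. With 1 such array only a bound was given, taken against the dim value or, if higher, the faintest level well above background on the dim array. Precision is limited by the 4 arrays, and p-values were not computed. Python 3.11.15, numpy 2.4.6, pandas 2.3.3, scipy 1.17.1, R 4.3.3 and limma 3.58.1 were used, and the steps were tested on simulated data. The 9 alternatives tried covered scaling (253 spike-in spots), normexp with an offset of 50, filter, probe choice and threshold.

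Members and gene lists were chosen with earlier results of these data known. Named with their levels were the fibrillar and type IV genes, Col22a1 and collagen genes past 2-fold, and of the other lists the genes past 1.5-fold with 4OHT in OSKA cells and those that differed most. Further genes were named after their values were seen. A planned likeness of patterns to Col22a1 was left out, since 4 arrays are too few for a correlation. RefSeq accessions (GRCm38.p6) named 27509 probes (49.4%), and other probes kept the name in the files. Coordinates of probes were taken from the files, which use NCBI37 (mm9). The place of probes in exons was not analysed here.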

Additional observations from a re-analysis of the deposited data

Results flagged for a closer look

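Of 35 collagen genes, 20 had 4OHT differences of opposite sign in OSK and OSKA cells, most of them small, and in 4 of these the differences lay at least 2-fold apart. With 1 array per group these contrasts of difference were not tested. The matching shares of all genes were not computed, so whether these collagen counts are unusual cannot be told. The signs also depend on the scaling. Spike-in scaling shifts the 4OHT differences by −0.31 in OSK cells and by 0.00 in OSKA cells, which can turn small differences in OSK cells. The genes with opposite signs were not counted again under it. The difference in OSKA minus that in OSK cells (log2) was 3.12 for Col22a1, 1.41 for Col14a1, −1.11 for Col20a1 and −1.36 for Col7a1. The second probes of Col14a1 and Col20a1 gave 0.92 and −0.29, each under 2-fold, and Col22a1 and Col7a1 had 1 probe. With normexp and quantile normalization the 4OHT differences in OSK and OSKA cells were 0.19 and −0.23 for Col20a1, under 2-fold apart, and −0.08 and 1.83 for Col22a1. Spike-in scaling reduced that of Col7a1 in OSK cells from 0.64 to 0.33.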

How the results depend on the processing

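Of the medians and counts under each alternative, 279 stayed near the value reported and 27 moved, and of the values of single genes, group medians and counts at 1.5-fold 867 stayed and 93 moved. No called value changed sign. Spike-in scaling moved the collagen median to −0.37 with 4OHT in OSK cells and −0.26 with AKT-MER in the absence of 4OHT, that of the processing genes to −0.31 and −0.38, and that of the receptors to −0.043 and −0.11. It also gave 0 collagen genes 2-fold higher and 2 processing genes 2-fold lower with AKT-MER in the absence of 4OHT, and 2 collagen genes 2-fold lower in its presence. Past 2-fold in either direction were then 4.64% and 3.17% of all genes in these comparisons. Under it 1 collagen gene lay above and 6 lay below on both OSKA arrays, an order of arrays whose alternatives, like those of the counts at 1.5-fold, were chosen after seeing the data. With normexp and quantile normalization 0 collagen genes were 2-fold lower with 4OHT in OSKA cells, 0 higher with AKT-MER in the absence of 4OHT and 0 lower in its presence. Here 0.996%, 0.367% and 1.22% of all genes passed 2-fold in either direction. Without the filter on dim probes, 4 of 43 collagen genes were higher and 2 lower with 4OHT in OSKA cells, and 4 were higher with AKT-MER in the absence and 7 in the presence of 4OHT. Of the processing genes 1 was higher with 4OHT in OSKA cells, 1 lower with AKT-MER in the absence and 1 higher in the presence of 4OHT. All genes rose likewise: 9.58%, 8.59% and 9.04% passed 2-fold in either direction in these 3 comparisons, against 2.91%, 2.02% and 3.04% with the filter. The mean of all probes left 1 collagen gene higher with 4OHT in OSKA cells, where 2.73% of all genes passed 2-fold in either direction. At 1.5-fold, 2 collagen genes were higher with 4OHT in OSK cells (4.33% of all genes) and 3 lower with 4OHT in OSKA cells (4.63%). With AKT-MER 6 were higher in the absence of 4OHT (5.66%), and 8 were higher (5.46%) and 3 lower (5.1%) in its presence. The cause of these shifts was not tested beyond what each alternative changes. No paired analysis was possible because each group had 1 array, and none could be left out. Dim probes such as those of Col22a1, Col15a1 and Col20a1 carry the larger errors, and probes under background give bounds only.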
